A study of Homo sapiens with 9 samples.

Results

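The sites described here are methylated copies of CCCGGG in DNA rich in that sequence, away from unmethylated copies with values in all 9 libraries. Their methylation was read by DREAM, digital restriction enzyme analysis of methylation, which reports on the CpG inside each CCCGGG. The DNA came from HEK293T cells, an easily transfected line derived from human embryonic kidney in which the SV40 T antigen is present. A site was included if it lay on chromosomes 1 to 22, had a value in all 9 libraries and averaged 20 to 95% methylation over them. It also needed at least 3 other listed CCCGGG sites within 1000 bases and no complete site averaging under 5% within that distance. These conditions were met by 6350 sites, which were 10.6% of the 59751 sites with 9 values and 23.2% of the 27400 autosomal sites of 20 to 95%. They are called dense methylated sites below. The sites were chosen by their mean methylation over all libraries, so levels are given as a description with no test. The choice used the mean over all 9 libraries and not the differences between groups, although a site near a limit could be included through the groups in which it was high or low. The mean of every group lay between 20 and 95% at 5934 of the 6350 sites.

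The 9 libraries formed 3 groups of 3. Cells of every group received a pIRES plasmid by Lipofectamine transfection, either the empty vector or the plasmid for TET1-ALT or for TET1-FL. DNA was isolated on day 4 after transfection. The sources used here give neither the share of cells that took up a plasmid nor the amount of TET1 protein, so each value averages over transfected and untransfected cells. The labels number the replicates without saying whether they came from separate cultures, and p-values therefore reflect only the spread among these libraries, part of which may be technical. Each library had a value at 61549 to 72340 sites.

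In mammalian cells most CpGs are methylated, and CpG-rich stretches such as promoter islands are the usual exception. When a CpG-rich stretch does carry methylation, the mark is kept through cell division by maintenance methyltransferases. TET1 is a dioxygenase that converts 5-methylcytosine to oxidised forms, which opens a way to demethylation. Full-length TET1 has a CXXC zinc finger with affinity for CpG-rich DNA that lacks methylation, and the title of the series concerns an isoform without it.

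Among complete autosomal sites with at least 3 neighbours, most were unmethylated. Of 23666 such sites, 13323 (56.3%) averaged under 5%, 1042 (4.40%) averaged 5 to 20%, 7656 (32.4%) averaged 20 to 95% and 1645 (6.95%) averaged over 95%. Within the 20 to 95% class, 6350 (82.9%) had no complete site under 5% within 1000 bases and 1306 had one. The dense methylated sites had a median level of 81.1% with quartiles of 60.6% and 90.04%. The sites with an unmethylated neighbour had a median of 59.7%. Sites of 20 to 95% with 0 to 2 neighbours, called sparse sites below, numbered 19744 and had a median of 79.1%. Thus the level profile of dense methylated sites lay close to that of sparse sites.

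The profile was skewed to high values. Levels of 20 to 50% were found at 1057 dense methylated sites (16.6%), 50 to 80% at 2002 (31.5%), 80 to 90% at 1693 (26.7%) and 90 to 95% at 1598 (25.2%). The matching shares of sparse sites were 18.2%, 33.5%, 27.0% and 21.3%. The excess over sparse sites was in the band of 90 to 95%. At the limits of the definition, the 3 lowest included sites averaged 20.02%, 20.04% and 20.07%, and the 3 nearest sites below averaged 19.996%, 19.982% and 19.961%. The 3 highest averaged 94.999%, 94.996% and 94.988%, against 95.001%, 95.002% and 95.003% for the nearest sites above. Another 420 sites of 5 to 20% and 1543 sites over 95% met every other condition. The 7089 sites with exactly 2 neighbours that met the rest had a median of 80.3%, and the included sites with exactly 3 had 80.9%. On the distance condition, the closest unmethylated site to an included site was 1006 bases away, and the farthest from an excluded one was 999 bases away.

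**Figure D1:**
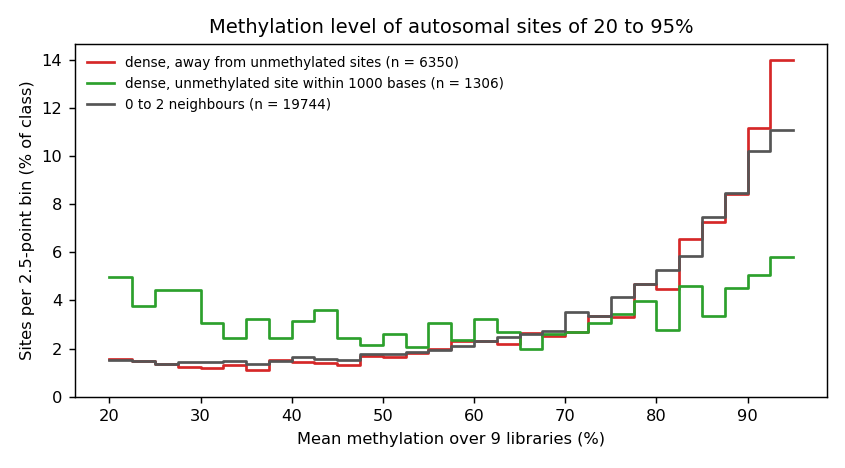
Share of sites (vertical axis, percent of each class) in bins of mean methylation over 9 libraries (horizontal axis, percent), for dense methylated sites, dense sites with an unmethylated site within 1000 bases, and sparse sites with 0 to 2 neighbours. The first and last classes have medians of 81.1% and 79.1%, while the sites near an unmethylated site are spread more evenly, with a median of 59.7%.

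Dense methylated sites were mostly far from unmethylated DNA. The median distance to the nearest site under 5% was 26298 bases, with quartiles of 9762 and 69200 bases, and it was 35255 bases for sparse sites. The mean level was 69.5% at the 313 sites with an unmethylated site 1 to 2 kb away and 72.2% at the 542 sites with one at 2 to 5 kb. It was 74.9% at the 1836 sites with one at 5 to 20 kb and 72.9% at the 3659 sites farther off. Levels were therefore lowest next to the limit of the definition and did not keep climbing with distance.

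The sites were concentrated near the outermost listed CCCGGG sites of their chromosomes. These are called the ends below, although they need not lie at the physical ends. Of the 6350 sites, 3352 (52.8%) lay within 5 Mb of the outermost listed CCCGGG site of their chromosome, compared with 37.6% of the dense sites near an unmethylated site, 34.1% of sparse sites, 25.2% of dense unmethylated sites and 31.3% of all complete autosomal sites. Within 1 Mb of the ends the shares were 14.2% for dense methylated sites and 7.24% for all complete autosomal sites. The median distance to the end was 4.59 Mb, against 17.7 Mb for dense unmethylated sites. As a share of the complete dense sites of a chromosome, dense methylated sites ranged from 17.1% on chromosome 15 and 17.8% on chromosome 3 to 40.3% on chromosome 21 and 33.5% on chromosome 9. Although 848 megabases held at least 1 site, 87 of them held 50.2% of the sites. The 5 richest megabases held 489 sites (7.70%). Chromosome 16 from 1000000 to 1999999 and chromosome 19 from 1000000 to 1999999 had 108 each, and chromosome 9 from 139000000 to 139999999 had 107. Chromosome 1 from 1000000 to 1999999 had 87 and chromosome 7 from 1000000 to 1999999 had 79. All positions are on the hg19 build, as the site names give them. No gene annotation of that build was used, so genes at these positions are not named.

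Around the dense methylated sites, many listed CCCGGG sites gave no value. The sites formed 25955 pairs with a listed neighbour. In 20.3% of these the neighbour had no value in any library, and in 9.71% it had a value in 1 to 8 libraries. It averaged 5 to 20% in 3.35%, 20 to 95% in 56.9% and over 95% in 9.77%. Whether a site could be read moved with the distance to the next CCCGGG. Of the 38013 listed autosomal sites with at least 3 neighbours, 62.3% had all 9 values. The share was 40.5% where the nearest listed site was 0 to 29 bases away, 35.7% at 30 to 59 bases and 57.7% at 60 to 99 bases. It was 88.2% at 100 to 199 bases, was 72.8% at 400 to 599 bases and only 9.82% at 600 to 1000 bases. DREAM sequences fragments between cut sites after size selection on a gel, and the part of fragment size in these shares was not tested.

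Few sites were complete in stretches with evenly spaced CCCGGG. Among 1014 runs of listed sites with an included site and at least 5 gaps, 38 had at least 50% of their gaps of one length, with a commonest gap of 16 to 100 bases (median 45.5). Only 85 of their 787 listed sites (10.8%) were complete, compared with 5215 of 7925 (65.8%) in the other 976 runs. Their 72 dense methylated sites had a median level by run of 79.8%, against 78.6% in the other runs. Of the 38 runs, 35 (92.1%) lay within 5 Mb of the outermost listed site of their chromosome, against 57.1% of the other runs. The most regular run, on chromosome 6 from 168972559 to 168974686, had 23 listed sites with 19 of 22 gaps of 62 bases, and its only included site, at the end of the run, averaged 41.0%. On chromosome 8 from 144774460 to 144775551, 12 of 14 gaps were of 40 bases and 3 sites averaged 93.5%, 86.5% and 90.2%. On chromosome 5 from 1289277 to 1291880, 45 of 53 gaps were of 42 bases and 2 sites averaged 60.1% and 74.5%. The evenly spaced stretches were thus represented by few sites each, at levels from intermediate to high.

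The 6350 sites fell into 2711 runs with gaps of at most 1000 bases. Runs of at least 3 sites, called clusters below, numbered 1023 and held 4020 sites (63.3%), while 1046 sites stood alone and 642 runs had 2. A cluster had 3 sites in 490 cases, 4 in 305, 5 in 127 and more in the rest, and the median span was 763 bases (133 to 3630). Cluster means had a median of 76.7% and ran from 20.7% to 94.8%. Sites of one cluster differed widely. The range of site means within a cluster had a median of 27.4 points and quartiles of 13.5 and 43.4 points. For comparison, replicate libraries of one group differed at a site by a median SD of 2.22 points. The pooled SD of site means within clusters was 16.5 points, and the SD of the cluster means was 15.1 points. In 188 clusters (18.4%) the sites lay within 10 points of each other, and in 301 (29.4%) they spanned at least 40 points. All sites were at 80% or more in 181 clusters and all were under 50% in 32, while 261 clusters held both a site under 50% and a site at 80% or more. Inner sites of a cluster averaged 73.4% and the outermost sites 72.7%.

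The 3 clusters of at least 5 sites with the smallest range were uniformly methylated at a high level. On chromosome 10 from 1405013 to 1406032, 6 sites averaged 89.2% to 94.4%. On chromosome 16 from 624775 to 625609, 5 sites averaged 87.5% to 94.5%, and on chromosome 2 from 119915054 to 119915937, 5 sites averaged 85.1% to 92.7%. The clusters with the largest range held neighbouring sites of opposite level. On chromosome 19 from 290083 to 291799 the 7 site means, in genomic order, were 36.1%, 48.7%, 94.8%, 72.7%, 74.9%, 20.4% and 34.2%. On chromosome 6 from 34433534 to 34434753, 5 sites ran from 20.6% to 93.9%, and on chromosome 2 from 239755550 to 239756508 from 21.6% to 94.1%. In the chromosome 19 cluster the highest site had 94.4%, 95.6% and 94.4% with the empty vector, and the lowest had 21.2%, 11.4% and 24.5%, so the contrast between sites was present in each library.

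The clusters with the most sites were of several kinds. The largest, on chromosome 1 from 1017407 to 1020981, had 12 sites and a mean of 83.4%, with site means of 74.7% to 91.7%. On chromosome 5 from 170735597 to 170739047, 11 sites averaged 82.0%. Clusters of 10 sites on chromosome 9 from 139947519 to 139948872, chromosome 10 from 135012042 to 135015672, chromosome 19 from 1392981 to 1396602 and chromosome 22 from 50968119 to 50970861 averaged 51.4%, 80.9%, 73.2% and 59.98%. Clusters of 9 sites starting at 155241436 on chromosome 7, 139094179 on chromosome 9, 134755471 on chromosome 10 and 89641097 on chromosome 16 averaged 76.7%, 61.6%, 62.2% and 60.1%. In the chromosome 5 cluster the level changed step by step along the stretch. Its first 3 sites averaged 70.3%, 68.0% and 68.8%, the 4 following ones 86.8%, 91.0%, 94.1% and 94.6%, and the last 4 averaged 82.5%, 85.5%, 80.4% and 79.7%. The chromosome 9 cluster was high at its first site (93.3%), had 3 sites of 59.2% to 64.8% next to it, and then 5 sites of 26.5% to 42.2% before a last site of 64.5%.

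Close sites had more similar levels than distant ones, with steps that were not even. The median absolute difference between consecutive dense methylated sites was 7.82 points at 1 to 49 bases (219 pairs, Pearson r of their levels 0.636), 11.0 points at 50 to 99 bases (291 pairs, r 0.425) and 8.70 points at 100 to 199 bases (970 pairs, r 0.548). It was 10.2 points at 200 to 399 bases (1214 pairs, r 0.434), 12.01 points at 400 to 599 bases (628 pairs, r 0.30) and 9.68 points at 600 to 1000 bases (317 pairs, r 0.365). Beyond the window it was 13.3 points at 1 to 10 kb (394 pairs, r 0.15) and 15.0 points at 10 to 100 kb (978 pairs, r 0.00997). These correlations are across sites of the same libraries and describe those libraries. The similarity was graded, and even the closest pairs differed by more than the replicate SD of 2.22 points.

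**Figure D2:**
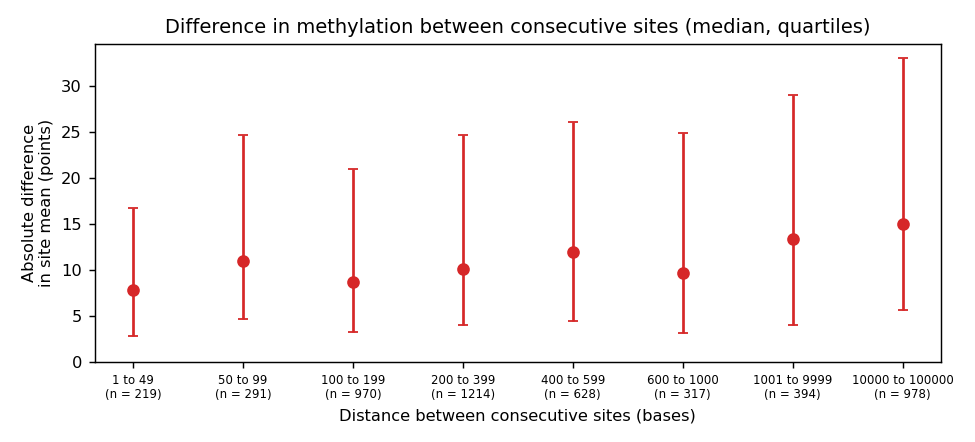
Absolute difference in mean methylation between consecutive dense methylated sites (vertical axis, points; dots are medians and bars the quartiles) by the distance between them (horizontal axis, bases). The median is 7.82 points for pairs within 49 bases and 15.0 points for pairs 10000 to 100000 bases apart.

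The spread between replicates was smaller in value at dense sites, near an unmethylated site or not, than at sparse sites of the same level. This difference was not tested. The median replicate SD was 2.54, 2.73, 2.12 and 1.54 points at dense methylated sites of 20 to 50%, 50 to 80%, 80 to 90% and 90 to 95%. Dense sites near an unmethylated site had 2.49, 2.75, 2.09 and 1.70 points, and sparse sites had 2.87, 3.02, 2.35 and 1.75 points. The number of reads behind a value is unknown beyond the minimum of 20, so the part of depth in this difference was not tested. A cluster mean had a median replicate SD of 1.40 points.

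The comparison of TET1-FL with the empty vector addressed how methylation differed after transfection of full-length TET1. Dense methylated sites averaged less in every TET1-FL library than in any empty vector library, by a little over 1 point. The means were 74.0%, 74.1% and 73.6% with the empty vector and 72.2%, 72.8% and 72.4% with TET1-FL. The groups did not overlap, and the difference was -1.40 points, with library pairs from -1.88 to -0.772 points. It was present in each band of level, at -1.27 points for 20 to 50%, -1.87 for 50 to 80%, -1.43 for 80 to 90% and -0.864 for 90 to 95%, without overlap in any band. It was -1.53, -1.29, -1.06 and -1.91 points at sites with 3, 4 to 5, 6 to 9 and at least 10 neighbours. It did not vary in order with the distance to the nearest complete site under 5%. It was -1.32, -1.50, -1.46 and -1.36 points at 1 to 2, 2 to 5, 5 to 20 and over 20 kb. All 22 chromosomes had a lower mean in TET1-FL, without overlap on 21 of them. The extremes were chromosome 20 (-1.89 points) and chromosome 8 (-0.685 points). The 5 richest megabases differed by -1.50, -1.29, -1.43, -1.77 and -2.03 points in the order given above, all without overlap.

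The same shift was seen outside CCCGGG-rich DNA. Sparse sites differed by -1.59 points and dense sites near an unmethylated site by -1.63 points. Within each library, dense methylated sites averaged above sparse sites by 1.20, 1.21 and 1.40 points with the empty vector, by 1.21, 1.20 and 1.21 points in TET1-ALT and by 1.51, 1.55 and 1.31 points in TET1-FL. This gap was 0.187 points wider in TET1-FL than with the empty vector (-0.0853 to 0.351), with overlapping libraries. It was 0.249 points wider in TET1-FL than in TET1-ALT (0.101 to 0.343), without overlap. Relative to sparse sites, then, dense methylated sites did not show the lower mean in TET1-FL. In the band of 20 to 50% the difference between TET1-FL and the empty vector was -1.80 points at sparse sites and -1.27 points at dense methylated sites, and the change of the gap was 0.531 points (-0.121 to 1.06). In the bands of 50 to 80%, 80 to 90% and 90 to 95% the gap changed by 0.164, -0.0117 and 0.0468 points, and the libraries overlapped in all 4 bands. The 18 spiked-in control sites averaged 44.1%, 44.0% and 44.1% with the empty vector and 44.1%, 44.1% and 44.2% in TET1-FL, a difference of 0.0883 points with overlapping libraries. The 14 of them averaging 20 to 95% were 0.186 points higher in TET1-FL (0.0779 to 0.332), without overlap. The authors corrected the ratios by means of spiked-in standards. Likeness of control sites between libraries may thus come from that correction, and their values are no independent check of the genomic shift.

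TET1-ALT lay between the other groups and overlapped both. Its library means were 74.1%, 73.2% and 72.8%, so that replicate 1 was level with the empty vector and replicate 3 was close to TET1-FL. The difference from the empty vector was -0.539 points (-1.34 to 0.483), and it was -0.903 points without TET1-ALT replicate 1 and -0.240 points without TET1-ALT replicate 3. It was -0.553, -0.725, -0.543 and -0.294 points in the 4 bands of level, with overlap in each. By chromosome the mean was lower on 21 of 22, with no chromosome free of overlap. Its extremes were chromosome 7 (-0.709 points) and chromosome 13 (0.123 points). The mean difference between TET1-FL and TET1-ALT was -0.860 points, with library pairs from -1.87 to 0.0713 points, and it was -0.496 points without TET1-ALT replicate 1. The TET1-FL libraries were below the TET1-ALT libraries without overlap at 80 to 90% (-0.888 points) and 90 to 95% (-0.571 points), and overlapped them at 20 to 50% (-0.721 points) and 50 to 80% (-1.14 points). On 5 of 22 chromosomes the 2 groups did not overlap. The 3 comparisons share libraries, so they are not independent of each other.

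**Figure D3:**
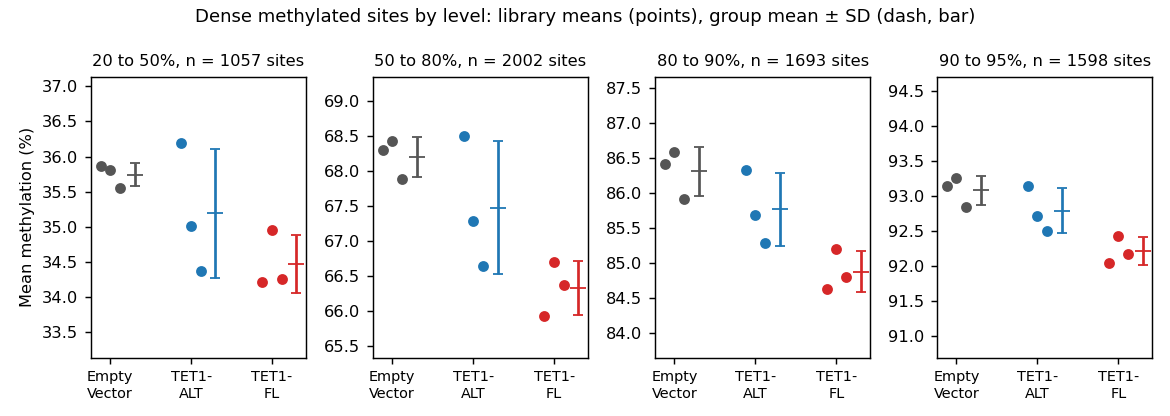
Mean methylation of dense methylated sites (vertical axis, percent; each panel spans its own 4 points and does not start at 0) in each library (points), with the group mean and SD (dash and bar, n = 3), for 4 bands of level. The TET1-FL points lie below all empty vector points in each panel, while the TET1-ALT points are spread over both.

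At single sites the shift was small against the spread between replicates. With limma on each of the 59751 complete sites and Benjamini-Hochberg adjustment over all of them, 0 of 6350 dense methylated sites passed an adjusted p under 0.05 between TET1-FL and the empty vector, as did 0% of all sites (smallest adjusted p 0.287 among dense methylated sites, 0.0843 among all). At an unadjusted p under 0.05, 769 (12.1%) were lower in TET1-FL, against 9.72% of all sites, and 82 (1.29%) were higher, against 1.11%. Library values did not overlap at 1090 sites (17.2%) that were lower, against 14.9% of all sites, and at 123 (1.94%) that were higher, against 2.13%. The share of lower sites without overlap among all sites of 20 to 95% was 16.6%, close to that of the dense methylated ones. The median difference was -1.38 points, against -0.183 points over all sites and -1.49 points over sites of 20 to 95%. After each library was centred on its sparse sites, 178 dense methylated sites (2.8%) passed, 52 lower and 126 higher, against 3.07% of all sites of 20 to 95%. Over all sites 0.621% then passed as lower and 33.4% as higher. Of those 19934 higher sites, 18979 averaged under 5%, where centring adds the offset of the sparse sites to values near 0. The adjustment runs over all sites, so the count among dense methylated sites depends on these calls too.

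The other comparisons also gave no call among dense methylated sites. Between TET1-ALT and the empty vector 0 sites passed by limma, as did 0% of all sites. At an unadjusted p under 0.05, 263 (4.14%) were lower, against 5.49% of all sites and 4.41% of those of 20 to 95%. Higher values were found at 117 (1.84%), against 1.73% and 1.8%. Library values did not overlap at 517 lower sites (8.14%, against 10.1% and 7.59%) and at 213 higher ones (3.35%, against 3.14% and 3.21%). The median difference was -0.517 points, against -0.0367 points over all sites and -0.477 points over sites of 20 to 95%. Between TET1-FL and TET1-ALT 0 sites passed by limma, again as did 0% of all sites. At an unadjusted p under 0.05, 383 (6.03%) were lower, against 4.46% of all sites and 6.63% of those of 20 to 95%. Another 64 (1.01%) were higher, against 1.1% and 1.01%. Values did not overlap at 675 lower sites (10.6%, against 7.36% and 11%) and at 132 higher ones (2.08%, against 1.94% and 1.99%). The median difference was -0.873 points, against -0.0667 points over all sites and -1.01 points over sites of 20 to 95%.

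Averaging over a cluster narrowed the error, and the lower mean in TET1-FL was seen in most clusters. Of the 1023 clusters, 876 (85.6%) had a lower mean in TET1-FL than with the empty vector, against 84.4% of the 1740 clusters tested, which include 717 clusters of other sites of 20 to 95%. Library means did not overlap in 289 clusters (28.3%) that were lower, against 27.5% of all clusters tested. They did not overlap in 8 (0.782%) that were higher, against 0.632%. By limma 0 clusters passed an adjusted p under 0.05, as did 0% of all clusters (smallest adjusted p 0.110). At an unadjusted p under 0.05, 185 clusters (18.1%) were lower and 11 (1.08%) were higher, against 20.1% and 0.862% of all. The median cluster difference was -1.40 points, against -1.44 points over all clusters tested. Every site of the cluster had the lower mean in 380 clusters (37.1%), and none had it in 11, while 40.6% of the clusters of other sites were lower at every site.

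**Figure D4:**
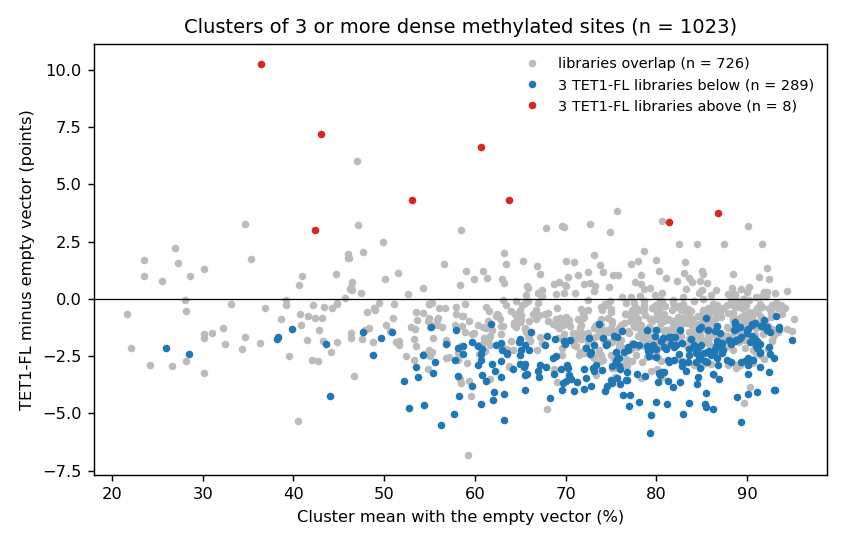
Difference of cluster means between TET1-FL and the empty vector (vertical axis, points) by the cluster mean with the empty vector (horizontal axis, percent) for 1023 clusters of dense methylated sites. In 289 clusters all 3 TET1-FL libraries lie below the 3 empty vector libraries, and in 8 they lie above.

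For the other pairs of groups the clusters gave fewer separations. TET1-ALT was below the empty vector in 715 clusters (69.9%, against 66.7% of all clusters tested). Library means did not overlap in 97 clusters (9.48%) that were lower and 21 (2.05%) that were higher, against 10.1% and 2.41% of all. By limma 0 passed, as did 0% of all clusters. At an unadjusted limma p under 0.05, 44 (4.3%) were lower and 11 (1.08%) higher, against 4.83% and 1.21% of all. TET1-FL was below TET1-ALT in 802 clusters (78.4%, against 78.8% of all). Library means of these groups did not overlap in 150 (14.7%) that were lower and 11 (1.08%) that were higher, against 14.3% and 1.21%. By limma 0 passed here too, as did 0% of all clusters. At an unadjusted limma p under 0.05, 84 (8.21%) were lower and 8 (0.782%) higher, against 8.56% and 0.69% of all. The median cluster differences were -0.517 and -0.842 points.

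The cluster that differed most between TET1-FL and the empty vector was higher in TET1-FL. This cluster of 6 sites on chromosome 8 from 48649368 to 48651575 averaged 31.8%, 39.9% and 37.6% with the empty vector, 39.0%, 42.5% and 44.2% in TET1-ALT and 46.8%, 48.1% and 45.2% in TET1-FL. The TET1-FL libraries were above those of both other groups, and the difference from the empty vector was 10.3 points (SE 2.03, limma adjusted p = 0.110). It lay at 2 adjacent sites, and the other 4 differed by -3.47 to 0.957 points. The site at 48650151 had 11.8%, 42.5% and 28.0% with the empty vector, 38.1%, 46.9% and 53.8% in TET1-ALT and 61.7%, 62.5% and 59.6% in TET1-FL. The site at 48650351 had 6.87%, 38.2% and 23.5%, then 34.4%, 37.0% and 48.1%, then 55.5%, 58.8% and 57.8%. At both, the empty vector libraries were far apart from each other and the TET1-FL libraries close together and higher. The first site of the cluster stayed at 75.5% to 83.7% in all 9 libraries, and the site at 48650978 at 16.7% to 25.7%. Without the site at 48650351 the cluster differed by 5.41 points.

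A cluster of 9 sites on chromosome 21 from 9825895 to 9826541 also held sites that differed between the groups beside sites with alike group means. It averaged 38.5%, 45.6% and 45.0% with the empty vector, 46.5%, 48.0% and 49.2% in TET1-ALT and 49.99%, 51.9% and 48.8% in TET1-FL. All TET1-ALT and TET1-FL libraries were above all empty vector libraries. TET1-ALT differed by 4.89 points (limma adjusted p = 0.758) and TET1-FL by 7.21 points (limma adjusted p = 0.129). Without empty vector replicate 1 these differences were 2.65 and 4.97 points. The sites at 9826364 and 9826484 had nearly equal values in each library. The former had 18.3%, 34.0% and 32.5% with the empty vector, 37.3%, 39.5% and 43.3% in TET1-ALT and 45.7%, 48.4% and 44.0% in TET1-FL, and the latter had 18.6%, 34.3% and 32.7%, then 37.7%, 40.3% and 43.9%, then 46.5%, 49.0% and 44.3%. Between them and the first sites of the cluster lay others with alike group means, such as the site at 9826111, which had 81.4% ± 2.21, 81.8% ± 0.323 and 81.6% ± 1.19 in the 3 groups (mean ± SD, n = 3). The site at 9826307 had 30.6% ± 0.755, 30.4% ± 0.601 and 29.6% ± 0.696. The sites at 9825895, 9826093 and 9826541 were also higher in every TET1-FL library than in any empty vector library. Their means were 28.5%, 36.1% and 36.0% with the empty vector, and 36.2%, 48.0% and 48.9% in TET1-FL.

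The next clusters that were higher in TET1-FL without overlap had 3 and 4 sites. On chromosome 8 from 687366 to 687736, 3 sites averaged 57.3%, 62.2% and 62.6% with the empty vector, 65.6%, 67.7% and 64.6% in TET1-ALT and 69.0%, 65.7% and 67.3% in TET1-FL. Its site at 687736 was at 32.4% ± 3.12 with the empty vector and at 43.7% ± 1.27 and 42.0% ± 1.69 in TET1-ALT and TET1-FL. The cluster lay 6.62 points higher in TET1-FL and 5.27 points higher in TET1-ALT (limma adjusted p = 0.113 and 0.585). On chromosome 7 from 100943164 to 100943778, 4 sites were 4.32 points higher in TET1-FL (limma adjusted p = 0.209), and 2.64 points higher without TET1-FL replicate 1.

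Among clusters without overlap, those furthest below the empty vector in TET1-FL differed by less than the chromosome 8 cluster. On chromosome 7 from 1281955 to 1282688, 3 sites averaged 80.1%, 81.4% and 76.3% with the empty vector, 76.4%, 75.1% and 75.6% in TET1-ALT and 74.4%, 71.8% and 74.1% in TET1-FL. All 3 sites were lower and the difference was -5.84 points (SE 1.36, limma adjusted p = 0.113). On chromosome 2 from 242964322 to 242965674, 5 sites averaged 56.1%, 55.2% and 57.4% with the empty vector, 54.3%, 54.2% and 51.7% in TET1-ALT and 51.1%, 49.8% and 51.4% in TET1-FL. The 3 groups were ordered without overlap, and the difference between TET1-FL and the empty vector was -5.50 points (SE 1.18, limma adjusted p = 0.110). The site at 242965278 had the largest part in it, with 54.5% ± 10.5 and 39.8% ± 4.48, and the other 4 sites differed by -3.21 points. The cluster on chromosome 9 from 100610137 to 100611125 differed by -5.39 points (limma adjusted p = 0.150), but by -1.12 points without its first site. The cluster on chromosome 20 from 61975989 to 61976362 differed by -5.30 points (limma adjusted p = 0.136) and was lower at all 3 sites.

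A fit of the clusters with at least 5 sites alone gave calls. Of 228 such clusters of dense methylated sites among 258 tested, 5 (2.19%) passed an adjusted p under 0.05 by limma between TET1-FL and the empty vector, against 1.94% of the 258. Of the 30 clusters of other sites 0 passed. Those on chromosome 8 from 48649368 (adjusted p = 0.0128) and chromosome 21 from 9825895 (adjusted p = 0.0345) were higher, as described. That on chromosome 2 from 242964322 (adjusted p = 0.0128) was lower. The cluster on chromosome 2 from 220348025 to 220348601 averaged 79.5%, 79.5% and 79.2% with the empty vector, 77.9%, 76.2% and 74.8% in TET1-ALT and 73.2%, 75.4% and 74.4% in TET1-FL, with a difference of -5.09 points between TET1-FL and the empty vector (adjusted p = 0.0128). The cluster on chromosome 16 from 1170436 to 1171844 averaged 83.8%, 81.5% and 83.4%, then 81.3%, 78.7% and 79.98%, then 77.5%, 75.7% and 80.5%, with a difference of -5.02 points (adjusted p = 0.0389). In both, every TET1-FL library was below every empty vector library. Leaving out 1 library at a time gave 0 to 7 calls. The count was 0 without TET1-FL replicate 1, and 3 without TET1-FL replicate 2, TET1-ALT replicate 1 or TET1-ALT replicate 3. Between the other groups 0 of these clusters passed.

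**Figure D5:**
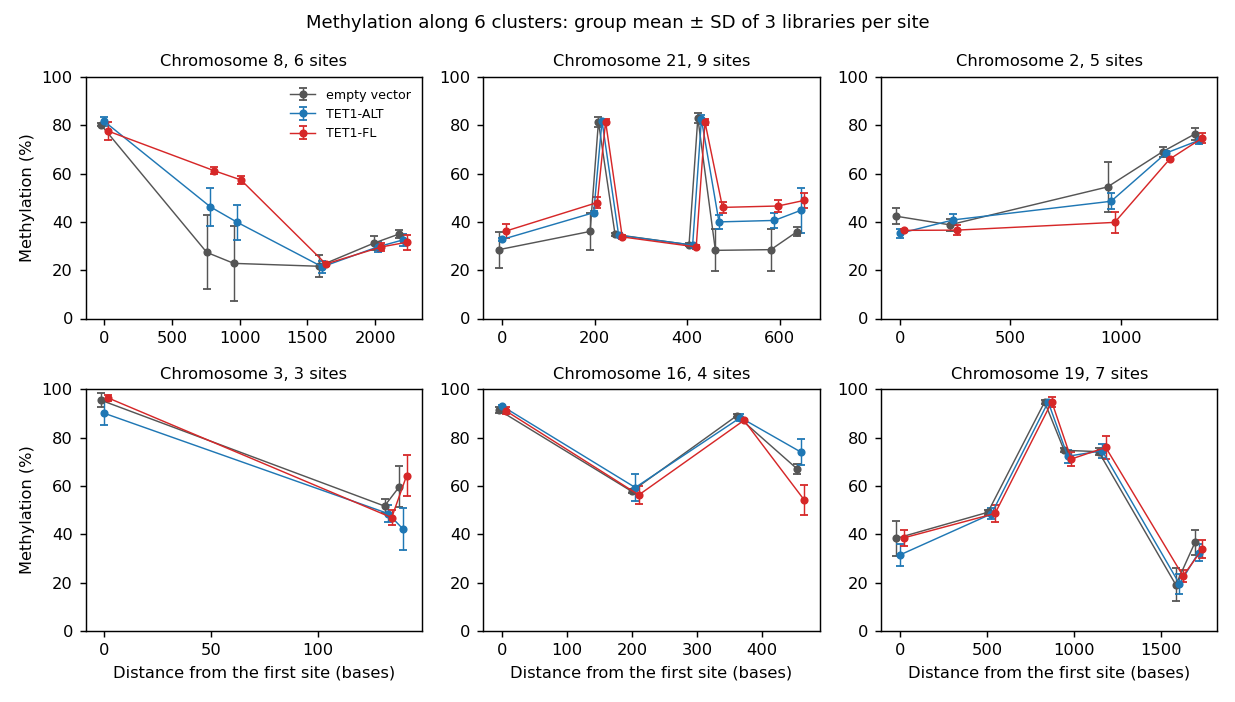
Methylation (vertical axis, percent, group mean ± SD of 3 libraries) at each site of 6 clusters by distance from the first site (horizontal axis, bases). On chromosome 8 only the sites at 48650151 and 48650351 separate TET1-FL from both other groups. On chromosome 21 the sites at 9825895, 9826093, 9826364, 9826484 and 9826541 are higher in TET1-FL than with the empty vector. Others there, such as those at 9826111 and 9826307, have alike group means. On chromosome 19 the groups overlap along a profile of 20.4% to 94.8%.

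Among clusters without overlap, those furthest below the empty vector in TET1-ALT were on chromosomes 3 and 19, where 1 site made up most of the difference. On chromosome 3 from 185379350 to 185379490, 3 sites averaged 72.5%, 65.6% and 68.9% with the empty vector, 61.8%, 58.0% and 61.0% in TET1-ALT and 66.6%, 70.2% and 70.8% in TET1-FL. TET1-ALT was below both other groups without overlap. It differed from the empty vector by -8.71 points (limma adjusted p = 0.303), and TET1-FL differed from it by 8.94 points (limma adjusted p = 0.209). Most of this came from the site at 185379490, which had 59.7% ± 8.46, 42.2% ± 8.71 and 64.3% ± 8.38, while its neighbour 7 bases away had 51.7% ± 2.81, 48.6% ± 3.35 and 46.9% ± 3.09. The site at 185379350 averaged 95.6%, 90.1% and 96.5%, so it met the limit of 95% only through TET1-ALT, in which it was low. On chromosome 19 from 2546154 to 2546939 the TET1-ALT difference was -5.27 points (limma adjusted p = 0.303), with 83.4% ± 1.54 and 67.3% ± 6.12 at the site at 2546939 and a difference of -1.68 points without it. The clusters on chromosome 7 from 1630435 to 1631233 and from 102099518 to 102100128 differed by -4.74 and -4.71 points (limma adjusted p = 0.758 and 0.781). On the higher side, the clusters on chromosome 5 from 3596566 and chromosome 12 from 52213949 differed by 4.38 points (limma adjusted p = 0.758) and 3.88 points (limma adjusted p = 0.781, and 2.54 points without empty vector replicate 3).

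Between TET1-FL and TET1-ALT, the cluster on chromosome 16 from 31548682 to 31549142 differed most on the lower side among clusters without overlap. It averaged 76.5%, 79.5% and 80.2% in TET1-ALT and 71.1%, 73.2% and 72.2% in TET1-FL, with 76.7%, 76.9% and 75.6% with the empty vector. The difference was -6.53 points (SE 1.18, limma adjusted p = 0.192), and -2.05 points without the site at 31549142. The clusters on chromosome 13 from 114514081, chromosome 19 from 12306072 and chromosome 20 from 25061791 differed by -5.89, -5.69 and -5.04 points (limma adjusted p = 0.471, 0.404 and 0.471). The first site of that chromosome 19 cluster, at 12306072, averaged 27.7% in TET1-ALT, 18.0% in TET1-FL and 18.9% in the empty vector libraries. This site met the limit of 20% only through TET1-ALT, in which it was high. Without it the cluster differed by -3.71 points. On the higher side stood the chromosome 3 cluster above and the chromosome 8 cluster from 48649368 (4.80 points, limma adjusted p = 0.525). The chromosome 7 cluster from 1630435 differed by 4.37 points, and by 2.78 points without TET1-FL replicate 3, and the chromosome 19 cluster from 2546154 by 2.90 points, and by 1.77 points without TET1-ALT replicate 3 (both limma adjusted p = 0.525).

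Among single sites without overlap, the one furthest below the empty vector in both TET1 groups was on chromosome 17 at 19770860. Its mean over all libraries, 20.9%, was just over the limit of 20%, so it was included only through the group in which it was high. It had 34.5%, 35.2% and 31.6% with the empty vector, 18.6%, 13.2% and 9.53% in TET1-ALT and 21.9%, 16.7% and 6.97% in TET1-FL. Both TET1 groups were below the empty vector without overlap, with a difference of -18.6 points for TET1-FL (SE 3.83, limma adjusted p = 0.381) and -19.99 points for TET1-ALT (limma adjusted p = 0.673). The site 6 bases away, at 19770854, had 21.1% ± 1.91, 26.1% ± 2.97 and 27.8% ± 2.36, so it leaned the other way. The 4 other sites of that run differed between TET1-FL and the empty vector by -4.99 to 2.59 points. At 110438366 on chromosome 12 methylation was 76.5% ± 2.11, 59.8% ± 6.74 and 58.9% ± 12.8, and its difference of -17.6 points between TET1-FL and the empty vector was -10.2 points without TET1-FL replicate 3. At 61681469 on chromosome 20 it was 72.5% ± 8.17 in the empty vector libraries and 55.4% ± 7.32 in TET1-FL (limma adjusted p = 0.394).

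On the higher side, the chromosome 8 sites at 48650151 and 48650351 described above differed most. Naming at most 1 site of a cluster, a site on chromosome 11 and another on chromosome 16 came next, both outside clusters. At 8290260 on chromosome 11 methylation was 5.63%, 13.9% and 13.1% with the empty vector, 14.9%, 24.3% and 27.1% in TET1-ALT and 27.6%, 33.9% and 27.8% in TET1-FL (18.8 points, SE 3.66, limma adjusted p = 0.372). Its mean over all libraries, 20.9%, was just over the limit of 20%, so it was included only through the groups in which it was high. The site on chromosome 16 at 65157510 had 29.9%, 22.3% and 30.1%, then 48.7%, 38.3% and 38.8%, then 53.9%, 42.2% and 40.4% (18.1 points, limma adjusted p = 0.381). In both, all libraries with a TET1 plasmid were above all empty vector libraries. Sites that were higher in TET1-ALT also included chromosome 19 at 1226268, with 81.6% ± 3.79 and 94.99% ± 3.46, and chromosome 13 at 109147944, with 51.1% ± 6.91 and 64.4% ± 3.26. The site on chromosome 20 at 45338084 was lower in TET1-ALT, with 38.9% ± 15.0 and 19.7% ± 2.35. Between TET1-FL and TET1-ALT the sites on chromosome 20 at 61868335 and 60509307 differed by -15.1 and -11.4 points, and the site on chromosome 22 at 17517404 by 20.3 points (limma adjusted p = 0.844, 0.837 and 0.836).

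The difference between TET1-FL and the empty vector was correlated between neighbouring sites at some distances, as was the difference between 2 empty vector replicates. Over consecutive pairs, Pearson r of that difference was 0.0139 at 1 to 49 bases, 0.0857 at 50 to 99, 0.17 at 100 to 199, 0.307 at 200 to 399 and 0.0555 at 400 to 599 bases. The difference between empty vector replicates 1 and 2, which no treatment separates, had r of 0.17 and 0.136 at 100 to 199 and 200 to 399 bases and between -0.0512 and 0.00638 at the other distances up to 1000 bases. Among pairs 200 to 399 bases apart, r of the TET1-FL difference was 0.354 for the 1096 pairs with no listed site between them and -0.0474 for the 118 pairs with one. For those 1096 pairs the Spearman rho was 0.141. Without the clusters on chromosomes 8 and 21 described above, their r was 0.177. The difference between empty vector replicates 1 and 2 had r of 0.16 over the 1096 pairs, a value not recomputed without those clusters. These are correlations across sites of the same libraries, given as a description. Consecutive sites can be the 2 ends of one sequenced fragment, and the part of that in the values was not tested.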

How the data were processed

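DREAM cuts DNA with SmaI, which cuts unmethylated CCCGGG, and then with XmaI, which cuts what remains. Per the labels, the authors divided methylated reads by the sum of methylated and unmethylated reads at a site and corrected the ratio by means of spiked-in standards. The deposited table gives percent methylation per site and library. Per the labels' protocols, a value needed at least 20 reads and libraries had 18 PCR cycles. Nothing more is known of the depth, and intervals that need it are left out. Sites were placed on hg19, per the submitters' processing notes. The aligner is not given in the sources used here.

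Of 382289 listed sites, 75645 had any value and 59751 had all 9, and these were used. The definition of the sites and the rules for naming clusters and sites were chosen with earlier results of these data known. Site values, and cluster means over at least 3 sites with gaps of at most 1000 bases, were fitted in limma 3.58.1 (R 4.3.3) with a mean per group, an intensity trend and robust moderation. P-values were adjusted over all sites or all 1740 clusters, called at 0.05, and the scripts were tested on simulated data. For 3 libraries against 3, the range of all pairwise library differences is given, and groups are said not to overlap where that range excludes 0. Means over all sites carry no p-value. The named clusters were the 10 with most sites, up to 4 in each direction per comparison that differed most without overlap, and the 3 of smallest and largest range with at least 5 sites. Up to 3 single sites in each direction per comparison, 5 megabases and 3 evenly spaced runs were named likewise. Alternatives covered left-out libraries, a replicate block, a logit scale, centring on sparse sites and other definitions.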

Additional observations from a re-analysis of the deposited data

How the results depend on the processing

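Centring each library on its sparse sites turned the sign of the mean difference, to 0.187 points (TET1-FL minus empty vector) and 0.249 points (TET1-FL minus TET1-ALT). It also gave 178 called sites between TET1-FL and the empty vector, 52 lower and 126 higher, where the uncentred fit gave 0. That was 2.8% of them, against 3.07% of all sites of 20 to 95%. Over all sites 34% passed, most of them sites averaging under 5%. Clusters of at least 5 sites gave 5 calls in that comparison, where fewer clusters were tested. Leaving out 1 library at a time, a choice added after seeing the data for those 5, gave 0 to 7 calls. It moved the mean differences over -1.57 to -1.26 points (TET1-FL minus empty vector), -0.903 to -0.240 points (TET1-ALT minus empty vector) and -1.16 to -0.496 points (TET1-FL minus TET1-ALT). The other settings kept the direction of the mean differences, and those that recomputed calls left 0 called sites and 0 called clusters in each comparison. Requiring 6 or more neighbours, 5000 bases or 20 to 80% changed only the sites averaged, so calls were not recomputed. The replicate block was among the settings that recomputed calls, with mean differences of -1.40, -0.539 and -0.860 points. Same-numbered libraries had correlations of their deviations from -0.0153 to 0.0169, with 0 of 9 pairs over 0.1, so the numbers were not taken as pairing. For the named clusters and sites, 8 values passed the threshold only under centring or in the fit of clusters of at least 5 sites, and none changed direction. The read depth per value limits all single-site results.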

Other observations

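Dense sites over 95% that met every other condition also averaged less in TET1-FL. The 1543 sites had means of 97.2%, 97.3% and 97.2% with the empty vector, 97.3%, 97.1% and 97.0% in TET1-ALT and 96.9%, 96.9% and 96.8% in TET1-FL. The TET1-FL libraries were below the empty vector without overlap, with a difference of -0.335 points (-0.453 to -0.267), and TET1-ALT overlapped the empty vector. The 13323 dense unmethylated sites averaged 0.432% ± 0.0261, 0.404% ± 0.0251 and 0.384% ± 0.0251 in the 3 groups (mean ± SD, n = 3), with overlapping libraries.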
